A study of Mus musculus with 159 samples.

Results

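Wnt signaling was followed across a population of mouse mammary tumors through the genes of its ligands, receptors, antagonists, transcription factors and best known target. The set was taken by gene symbol: every Wnt, Fzd, Sfrp, Dkk, Rspo and Lgr gene that carries a number, together with the coreceptors Lrp5 and Lrp6, the antagonist Wif1, the transcription factors Tcf7, Tcf7l2 and Lef1, and the target Axin2. A probe set of its own was annotated for 50 of these 51 genes, out of 18954 named genes on the array, and Tcf7 was not analysed here. The 50 genes are 19 ligands, 12 receptors and coreceptors, 4 rspondins, 3 rspondin receptors, 9 antagonists, 2 transcription factors and 1 target.

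Total RNA of 159 tumors was hybridized to Affymetrix mouse ST arrays, 1 tumor and 1 array per animal. All tumors arose in untreated female offspring of a cross between generation 7 of the Diversity Outbred (DO) stock and PyMT mice, and were taken at about 100 days of age and snap frozen. DO mice are an outbred stock descended from several inbred strains, and PyMT is the polyoma middle T oncogene, which the promoter of mouse mammary tumor virus drives in the mammary epithelium of FVB/NJ mice, so that every tumor carried the transgene. There is a single group and no normal tissue, so the results are the level of each gene, its spread across tumors, and how the genes move with each other and with markers of cell types.

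Wnt proteins are secreted, lipid-modified ligands that bind a Frizzled receptor, encoded by an Fzd gene, together with Lrp5 or Lrp6. In the canonical branch this binding keeps a destruction complex built on Axin from degrading beta-catenin, which then acts in the nucleus with Tcf and Lef factors, while rspondins bound to Lgr receptors keep Frizzled proteins at the surface and Sfrp, Dkk and Wif1 proteins block ligands or coreceptors. In the mammary gland Wnt signals guide the formation of the bud, the branching of ducts and the maintenance of basal stem cells.

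Values are on the log2 scale, so a difference of 1 is a doubling of signal, and since each probe set has its own affinity the level of a gene was not compared with that of another. A background level of 5.76 was taken from the means of 1218 olfactory, vomeronasal and taste receptor genes (their 95th percentile), and 24.8% of named genes did not exceed it. The luminal epithelial genes keratin 8 (Krt8) and Epcam were above background in every tumor, between 10.39 and 12.96 and between 8.96 and 11.25. Other luminal genes fell further in some tumors, with minima of 7.21 for Cldn7, 7.04 for Gata3, 6.56 for Krt19 and 6.43 for Elf3. Of the arrays, 6 correlated less with the others, with a lowest median correlation of 0.895 against 0.975 for the typical array. The only available hint of a batch is the animal number, which gave 5 blocks of 26 to 41 tumors and a last block of 5 that was not used on its own.

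Of the 50 genes, 45 had a mean above background, all but Wnt1, Wnt3, Wnt8b, Rspo2 and Dkk4. All 12 receptors and coreceptors and all 3 Lgr genes were above background in every tumor. To ask which genes varied across the cross, the variance of each was set against the median variance of the array and tested with a chi-square distribution (one-sided, p under 0.05). Of the 50 genes 32 passed, against 43.9% of all named genes, and 31 passed with Benjamini-Hochberg adjustment over all genes, against 42.5%. When genes below background were left out of the test and of its reference, 26 of 45 passed, against 42.6%. The median SD of the 50 genes was 0.31, against 0.22 over all genes. By role, 3 of 3 Lgr genes, 10 of 12 receptors and coreceptors and 7 of 9 antagonists passed, but 8 of 19 ligands and 1 of 4 rspondins. In whole tumors, fewer cells of a type and less RNA per cell cannot be told apart.

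**Figure D1:**
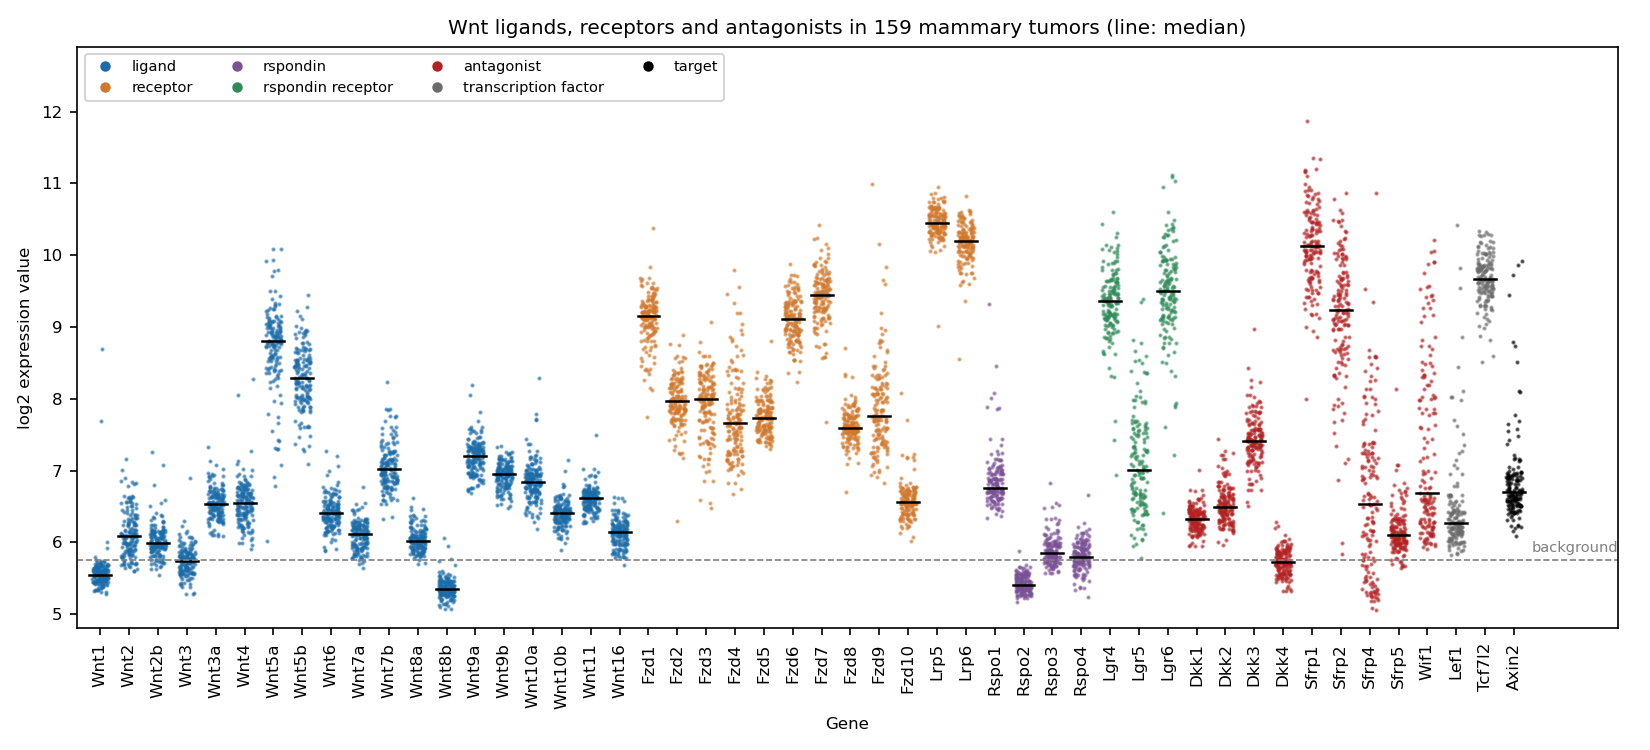
Values of the 50 genes in 159 tumors: the horizontal axis lists the genes by role (colors), the vertical axis gives the log2 expression value, each point is 1 tumor, the black line is the median and the dashed line is the background level of 5.76. Wif1, Sfrp4, Sfrp2 and Lgr5 spread widely, Lef1 and Axin2 have long upper tails, and 2 tumors stand far above the rest for Wnt1.

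Among the ligands, Wnt5a, best known for signaling that does not run through beta-catenin, ranged from 6.01 over a median of 8.80 to 10.09 (8.72 ± 0.59, mean ± SD, n = 159). The related Wnt5b ranged from 7.08 over a median of 8.28 to 9.45 (8.29 ± 0.43). Both exceeded background in all tumors, and Wnt5a had the largest variance ratio of the ligands, 7.27 times the median variance. Wnt7b, a ligand of epithelial cells, ranged from 6.32 over a median of 7.02 to 8.23 (7.05 ± 0.31). Wnt2, which stromal cells make in several tissues, ran from 5.60 over a median of 6.09 to 7.15, with 19 of 159 tumors at or below background.

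Wnt4, the ligand that progesterone induces in the mammary gland, ran from 5.90 over a median of 6.55 to 8.27 (6.55 ± 0.31). Its 2 highest tumors, at 8.27 and 8.05, both came from low-correlation arrays, and the next was at 7.28. Wnt10a, a ligand of skin appendages, ranged from 6.19 over a median of 6.84 to 8.29 (6.85 ± 0.28), and its neighbor Wnt6 from 5.88 over a median of 6.41 to 7.27. The highest Wnt10a, 0.51 above the next, came from a low-correlation array. Wnt6 did not pass the variation test, nor did Wnt10b, a ligand of the early mammary bud, which ran from 5.89 over a median of 6.40 to 7.14. The 11 ligands that did not pass had SDs between 0.14 for Wnt8b and 0.23 for Wnt2b.

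Wnt1, singled out after its values were seen, is the ligand gene first found at insertion sites of mouse mammary tumor virus. It was at background in almost the whole population, with a median of 5.55 and 5 of 159 tumors above background. A pair of tumors stood apart, that of animal 14763 at 8.69 and that of animal 14624 at 7.70, whereas the next was at 6.003. Neither came from a low-correlation array. These tumors ranked 9 and 12 of 159 for Axin2, at 8.09 and 7.65 against a median of 6.70, and 10 and 13 for Nkd1, a feedback inhibitor of the pathway, at 7.67 and 7.41 against 6.83. Wnt10b, next to Wnt1 on chromosome 15, was at 6.42 and 6.37 in them, close to its median of 6.40. Wnt1 passed the variation test only with these tumors: without the 2 highest tumors of each gene it did not pass, nor did Wnt9a and Fzd10, and 29 members remained.

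Among the receptors, Fzd9 and Fzd4 varied most. Fzd9 ranged from 6.82 over a median of 7.76 to 10.99 (7.88 ± 0.63), and its highest tumor, 0.83 above the next, came from a low-correlation array. Fzd4, the receptor for Norrin in blood vessels, ranged from 6.67 over a median of 7.66 to 9.80 (7.74 ± 0.59), with 40 tumors above 8 and 7 above 9. Fzd3, a receptor of planar polarity, was at 7.91 ± 0.45 and ranged from 6.48 over a median of 7.99 to 9.07. These 3 receptors thus differed by several doublings between the extremes of the population.

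Other receptors had smaller SDs, although the ranges of Fzd7 (2.75) and Fzd1 (2.63) exceeded that of Fzd3 (2.59). Fzd7, which mammary basal cells use, ranged from 7.67 over a median of 9.45 to 10.43 (9.42 ± 0.36), Fzd1 from 7.75 over a median of 9.16 to 10.37 and Fzd2 from 6.30 over a median of 7.96 to 8.88. Fzd6, a receptor of planar polarity in skin, was at 9.10 ± 0.30, and Fzd5 at 7.76 ± 0.25. Fzd10 was low and even in most tumors, with a median of 6.56, yet it reached 8.09, on a low-correlation array, and exceeded 7 in 9 tumors. Of the coreceptors, Lrp5 did not pass the variation test (10.45 ± 0.21), and Lrp6 did (10.17 ± 0.27, from 8.56 over a median of 10.20 to 10.82).

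All 3 receptors of rspondins spread widely. Lgr6, a marker of stem cells in the skin, ranged from 6.41 over a median of 9.50 to 11.11 (9.48 ± 0.66), and 26 tumors were above 10. Lgr4, the family member used in most tissues, ranged from 6.93 over a median of 9.37 to 10.60 (9.34 ± 0.49). Lgr5, the stem cell marker of the intestine, ranged from 5.78 over a median of 7.01 to 9.39 (7.11 ± 0.71), with 17 tumors above 8. Of their ligands, only Rspo1 passed the variation test. It stayed near its median of 6.76 in most tumors, but 4 tumors were above 8 and the highest, animal 14618, was at 9.32. Rspo2, Rspo3 and Rspo4 had means between 5.43 and 5.89.

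The antagonists included the members of largest spread. Wif1, which binds Wnt ligands outside the cell, had the largest variance ratio of the 50 genes, 29.6, and ranged from 5.91 over a median of 6.69 to 10.21 (7.26 ± 1.19). With 67 tumors above 7, 45 above 8 and 20 above 9, its values filled the range without a gap. Sfrp4, a decoy of Frizzled receptors as are all Sfrp proteins, ranged from 5.06 over a median of 6.53 to 10.87 (6.62 ± 1.08, variance ratio 24.2), and 44 tumors were at or below background. Its highest tumor, animal 14788, lay 1.34 above the next. That tumor also had the highest Sfrp5, at 8.13 against 7.08 in the next, the highest Dkk2 and the highest Fzd4.

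Sfrp2 ranged from 5.84 over a median of 9.24 to 10.87 (9.18 ± 0.84) and Sfrp1 from 8.002 over a median of 10.12 to 11.86 (10.13 ± 0.56). Sfrp5 was low, with a median of 6.10. Among the Dkk genes, Dkk3, a divergent member, ranged from 6.50 over a median of 7.42 to 8.98 (7.43 ± 0.35) and Dkk2, which binds Lrp5 and Lrp6, from 5.97 over a median of 6.49 to 7.44. All 4 Sfrp genes and 2 of 4 Dkk genes passed the variation test. Dkk1 stayed between 5.94 and 7.00 and did not.

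**Figure D2:**
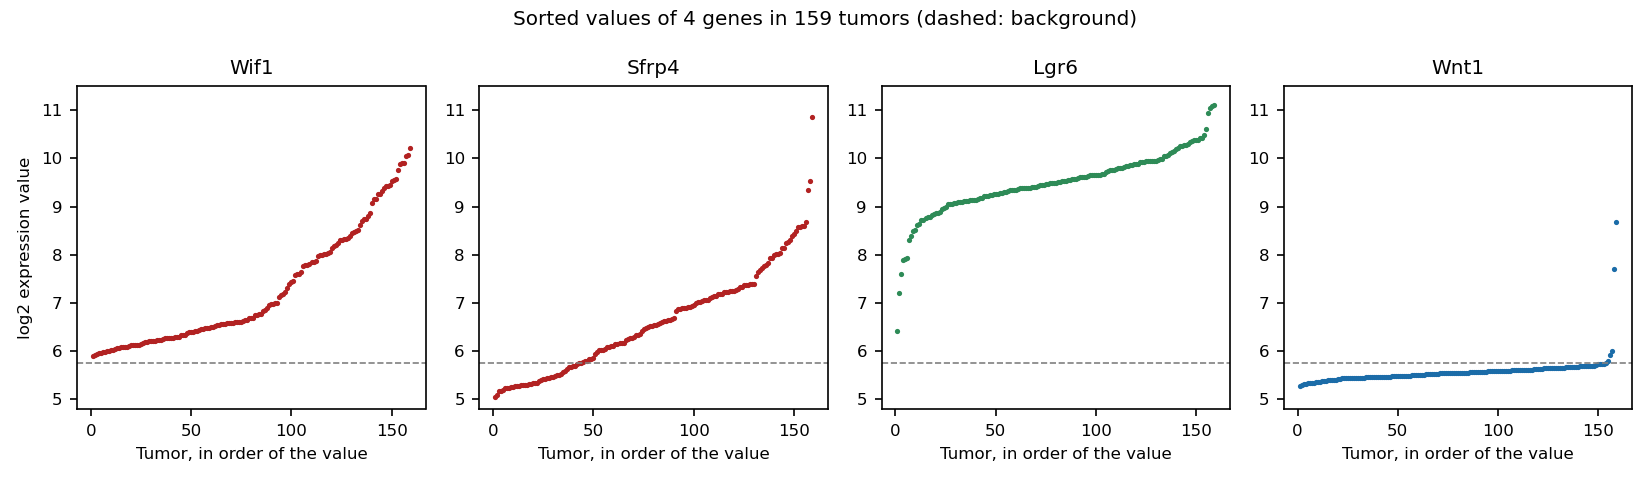
Sorted values of Wif1, Sfrp4, Lgr6 and Wnt1: the horizontal axis is the order of the 159 tumors by the value of that gene, the vertical axis the log2 expression value, and the dashed line the background level. Wif1 and Sfrp4 climb over more than 4 units, Lgr6 drops steeply only in its lowest tumors, and Wnt1 is flat except for 2 tumors at 7.70 and 8.69.

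At the transcriptional end, Tcf7l2 ranged from 8.52 over a median of 9.67 to 10.33 (9.67 ± 0.33). Lef1 had a median of 6.26 and a long upper tail, with 18 tumors above 7, 8 above 8 and a highest value of 10.41 (6.46 ± 0.70). Axin2, a scaffold of the destruction complex and itself a direct target of beta-catenin, ranged from 6.09 over a median of 6.70 to 9.92 (6.85 ± 0.63, variance ratio 8.3). Most tumors lay within a narrow band, since the 90th percentile was only 7.38, while 9 tumors were above 8 and 4 above 9. Of 46 measured pathway genes outside the set, 3 of them in more than 1 list, 29 passed the variation test, against 43.9% of all named genes. They held 4 of 16 genes of the beta-catenin core, 9 of 12 further inhibitors, 7 of 8 target genes and 6 of 6 planar polarity genes. Beta-catenin itself, Ctnnb1, was at 11.54 ± 0.20 and did not pass.

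As Axin2 is a feedback target, its value was used to ask which genes followed it. Each named gene was fitted on Axin2 across tumors with limma, with p-values adjusted over 18953 genes. Of the 49 other members 9 were higher with Axin2 at an adjusted p under 0.05, against 9.07% of all genes, and 3 were lower, against 3.13%. Those higher were Wnt5a, Wnt6, Wnt10a, Wnt10b, Fzd10, Lgr4, Lgr6, Dkk2 and Lef1. Those lower were Fzd5, Sfrp1 and Rspo2, the last with its mean below background. The median correlation with Axin2 was -0.05 over the 49 members and -0.01 over all genes, and the median of its size was 0.13 and 0.096.

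Pathway genes outside the set were read beside the members. Of the 46, 17 were higher with Axin2 and 0 lower by limma, against 9.07% and 3.13% of all genes. The 17 held 7 of 12 further inhibitors, 5 of 8 targets and 2 of 16 core genes. At an unadjusted permutation p under 0.05, 1 was lower by r, Pygo1, and 1 by rho, Ptk7. Without 7 tumors of high squamous markers, described next, 9 of 46 were higher and 0 lower, against 4.09% and 1.11% of all genes. The 9 held 4 of 12 inhibitors, 4 of 8 targets and 0 of 16 core genes (2 core genes at an unadjusted permutation p of r under 0.05). The share of all genes at the unadjusted threshold was not computed. Nkd1, an inhibitor that binds Dishevelled, was the gene most like Axin2 of all named genes above background (r = 0.83, rho = 0.54, permutation p = 1e-05 for both, the smallest that 100000 permutations can give). It rose by 0.36 ± 0.02 (log2, SE) for each SD of Axin2, an SD being 0.63 (limma adjusted p = 5.95e-39). Apcdd1, a membrane inhibitor, had r = 0.75, Znrf3, a ubiquitin ligase that removes Frizzled receptors, r = 0.67, the receptor Lrp4 r = 0.62 and the target Tnfrsf19 r = 0.59. In the same order their rho was 0.55, 0.34, 0.23 and 0.48. By contrast, Sp5, Ccnd1 and Rnf43, also listed as targets, had r = 0.04, -0.04 and 0.18 and were not called. Sp5 was low, at a mean of 6.04, and did not pass the variation test. Rnf43 was called with a score of the squamous markers as a covariate (r = 0.28, limma adjusted p = 0.0107), but not without the 7 tumors (limma adjusted p = 0.09).

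Besides Nkd1 and Apcdd1, the 10 genes most like Axin2 were Krt73, Klk7, Dlx3, Tchh, Klk6, Crct1, Ahr and S100a7a, with r from 0.76 to 0.82. Krt73 and Tchh are structural genes of the hair root sheath, Klk6 and Klk7 are proteases, and Crct1 belongs to the cornified envelope. Their ranks followed Axin2 less than their values did, with rho from 0.24 for Krt73 to 0.42 for Ahr. The 5 genes that ran most against it were Aqp5, Camk1, Nrg2, Tmtc2 and Papss1, with r from -0.43 to -0.51.

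Markers of squamous differentiation moved with Axin2, and 7 tumors stood apart on a score built from 9 measured genes such as Krt1, Krt10 and Ivl (a score is the mean of its genes, each in units of its SD). The score of those 7 lay between 2.88 and 6.18, and that of the others between -0.49 and 1.49. All 7 were above the median of Axin2, with values from 6.82 over 8.74 to 9.92, and 5 were among its 10 highest. In the other tumors Axin2 still rose with the score (r = 0.55, rho = 0.25, permutation p = 1e-05 and 0.0026, 0.25 to 0.85 within number blocks), whereas within the 7 the correlation did not pass the test (r = -0.15, two-sided exact permutation p = 0.84). That value rests on few tumors, since r within the 7 was 0.90 without the 2 farthest from their median score. The tumor of highest score, animal 14552, had Axin2 at only 7.78 and came from a low-correlation array. Over all tumors 12 members were higher with the squamous score, against 8.85% of all genes, and 1 was lower, against 3.79%. Without the 7 tumors 2 were higher, Fzd10 and Axin2, against 1.51%, and 2 lower, Fzd9 and Lrp6, against 0.554%. The members called with Axin2 are therefore given with and without those tumors, and the part of squamous tissue in these relations was not tested.

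Without the 7 tumors, 4 members were higher with Axin2, against 4.09% of all genes, namely Wnt1, Fzd10, Lgr4 and Lgr6, and 1 was lower, Sfrp1, against 1.11%. Of these, Wnt1 had its mean below background. Nkd1, Apcdd1 and Znrf3 were at r = 0.80, 0.62 and 0.59 there (rho = 0.48, 0.49 and 0.27), Lrp4 and Tnfrsf19 at 0.48 and 0.53 (rho = 0.14 and 0.43). The rho of Lrp4 did not pass the test (permutation p = 0.083). Its r was 0.29 without the 2 tumors farthest from the median of Axin2 and ran from -0.11 to 0.77 in the number blocks. The other 8 of the 10 genes most like Axin2 had r from 0.57 for S100a7a to 0.73 for Klk7, and the 5 that ran against it from -0.35 for Papss1 to -0.41 for Nrg2. The rho of those 8 was lower, from 0.16 for Krt73 (permutation p = 0.055) to 0.35 for Ahr. Lgr6 rose by 0.24 ± 0.05 per SD of Axin2 over all tumors (r = 0.36, rho = 0.28, permutation p = 4e-05 and 0.00028, limma adjusted p = 6.76e-05). Without the 7 tumors r was 0.37 and rho 0.26 (limma adjusted p = 0.000229). Of the members called over all tumors, Lgr6 changed least in r when the squamous tumors were left out. Leaving out the 2 tumors farthest from the median of Axin2 gave r = 0.34, and the number blocks ran from -0.0029 to 0.45.

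Its paralog Lgr4 had r = 0.34 (rho = 0.20, permutation p = 0.0002 and 0.013, limma adjusted p = 0.000316), and 0.28 without the 7 tumors. Lgr4 rose with Axin2 in every number block, from 0.29 to 0.61, but with ranks in place of values its call was lost (limma adjusted p = 0.0894). Lgr5, of the same family, was not called (r = -0.06, permutation p = 0.43), nor without the 7 tumors (r = -0.14).

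Sfrp1 was the antagonist that ran against Axin2. It fell by 0.17 ± 0.04 per SD of Axin2 (r = -0.31, rho = -0.16, permutation p = 0.00012 and 0.038, limma adjusted p = 0.00167), with -0.60 to 0.12 within blocks and -0.29 without the 7 tumors. The call was lost with ranks (limma adjusted p = 0.172). The lowest Sfrp1 of all, 8.002, was in the tumor of rank 5 for Axin2, but the tumor of rank 10, animal 14552, was at 11.11, rank 8 for Sfrp1. The latter came from a low-correlation array. Fzd5 had r = -0.24 and rho = -0.41 (permutation p = 0.0033 and 1e-05, limma adjusted p = 0.0279), so its ranks followed Axin2 more closely than its values. Without the 7 tumors the Fzd5 call was lost (r = -0.23, limma adjusted p = 0.0727), with a rho of -0.40 (permutation p = 1e-05). The call of Rspo2 (r = -0.23) was lost there too (r = -0.19, limma adjusted p = 0.149).

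**Figure D3:**
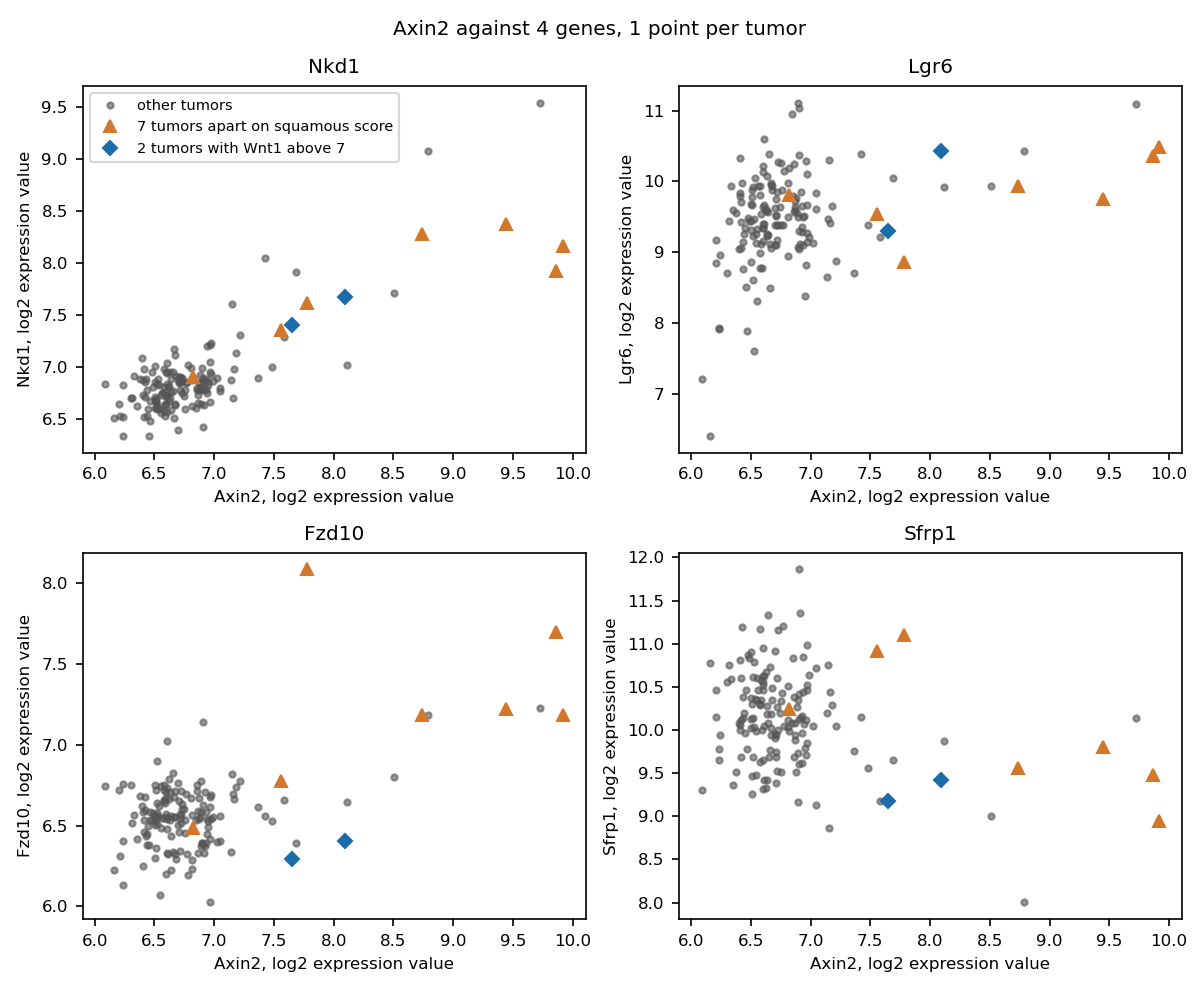
Axin2 (horizontal axis) against Nkd1, Lgr6, Fzd10 and Sfrp1 (vertical axes), all as log2 expression values with 1 point per tumor; triangles are the 7 tumors apart on the squamous score and diamonds the 2 tumors with Wnt1 above 7. Nkd1 is high in nearly all tumors with Axin2 above 8, Fzd10 is highest in a squamous tumor at 8.09, and Sfrp1 is lowest in a tumor with Axin2 at 8.79.

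Fzd10, Wnt10a and Wnt6 were the 3 members with the highest r to Axin2. Fzd10 had r = 0.54 (permutation p = 1e-05, limma adjusted p = 2.38e-11), but its rho was 0.15 (permutation p = 0.062). Without the 7 tumors r was 0.29 (limma adjusted p = 0.0133), and leaving out 2 more brought it to 0.05. Wnt10a had r = 0.42 (rho = 0.26, permutation p = 2e-05 and 0.00097, limma adjusted p = 1.07e-06), and 0.13 without the 7 tumors (rho = 0.17, permutation p = 0.034, limma adjusted p = 0.361). Wnt6 had r = 0.41 (rho = 0.12, permutation p = 1e-05 and 0.13, limma adjusted p = 2.74e-06), and 0.11 without them. With ranks in place of values over all tumors, Wnt10a and Lgr6 were the 2 members still called higher (limma adjusted p = 0.0214 and 0.0108), and Fzd10 and Wnt6 were not called (0.226 and 0.348).

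The squamous tumors themselves were high for these genes. Of the 7, 6 were among the 10 highest for Wnt10a, 5 for Fzd10, 5 for Dkk2 and 4 for Wnt6, but 1 for Lgr6. Within the 7, the squamous score correlated with Wnt10a at r = 0.87 (exact permutation p = 0.0065) and with Fzd10 at 0.80 (exact permutation p = 0.022). Without the 2 of them farthest from their median score, r was 0.95 and 0.78. In the tumors outside the 7 the values were 0.19 (permutation p = 0.021) and 0.35 (permutation p = 4e-05).

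Wnt5a, Lef1, Dkk2 and Wnt10b, called over all tumors with r from 0.23 to 0.29, had r from -0.03 to 0.12 without the 7 tumors and were not called. Wnt1 went the other way. It was not called over all tumors (r = 0.17, limma adjusted p = 0.139) and was called without the 7 (r = 0.27, limma adjusted p = 0.0202), where its rho was 0.05 (permutation p = 0.53). There r ran from -0.09 to 0.45 in the number blocks. The mean of Wnt1 was below background, its 2 highest tumors ranked 9 and 12 for Axin2, and the call was not tested without them.

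The tumor of rank 3 for Axin2, animal 14603 at 9.73, was not among the 7, though its squamous score of 1.10 was well above the median of -0.23. It had the highest Nkd1 of all tumors, 9.55, and ranked 2 for Lgr6 at 11.09 and for Lgr4 at 10.44, whereas Wnt10a at 6.69 and Wnt6 at 6.38 were below their medians. The tumor of rank 5, animal 14917, had Axin2 at 8.79, Nkd1 at 9.08 and a squamous score of 0.95, and those of ranks 7 and 8 had scores of 1.2998 and 1.49. The tumors of ranks 3 and 5 also ranked 3 and 6 for Fzd10. The 2 tumors with high Wnt1 had scores of -0.30 and -0.11.

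**Figure D4:**
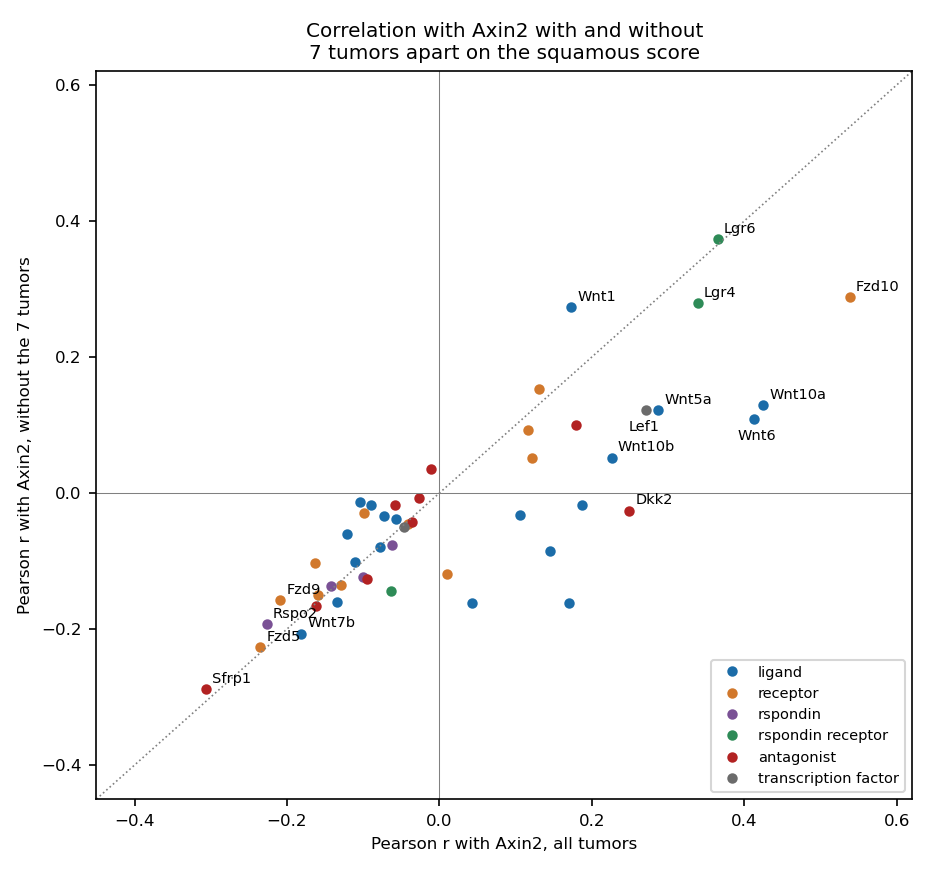
Pearson correlation of each of the 49 other members with Axin2 over all 159 tumors (horizontal axis) and without the 7 tumors apart on the squamous score (vertical axis), colored by role; the dotted line marks equal values. Lgr6 and Sfrp1 lie near the line, Wnt10a, Wnt6, Dkk2 and Fzd10 fall well below it, and Wnt1 lies above it.

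The promoters of Axin2, of its closest follower Nkd1, and of the members Lgr6 and Fzd10 were compared because these genes moved together. RefSeq windows on GRCm38.p6 were matched by symbol for 33 of the 50 members. The first 250 bases of each window were searched on both strands for the Tcf and Lef motifs CTTTGAT and CTTTGAA and for CTTTG, the core inside both. Of 27025 windows, 3.26% held CTTTGAT, 4.63% CTTTGAA and 48.8% the core. The 33 member windows held them in 1 gene (Wnt11), 1 gene (Dkk1) and 14 genes. The windows lie at chr11:108920099-108920348 (plus strand), chr8:88527383-88527632 (plus), chr1:135105277-135105526 (minus) and chr5:128600856-128601105 (plus), and are given 5′ to 3′ on the strand of the gene with any core in capitals.
Axin2: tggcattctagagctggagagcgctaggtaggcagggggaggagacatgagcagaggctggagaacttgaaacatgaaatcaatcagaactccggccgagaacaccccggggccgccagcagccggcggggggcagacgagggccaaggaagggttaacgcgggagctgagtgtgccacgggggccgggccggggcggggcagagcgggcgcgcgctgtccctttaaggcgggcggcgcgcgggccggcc
Nkd1: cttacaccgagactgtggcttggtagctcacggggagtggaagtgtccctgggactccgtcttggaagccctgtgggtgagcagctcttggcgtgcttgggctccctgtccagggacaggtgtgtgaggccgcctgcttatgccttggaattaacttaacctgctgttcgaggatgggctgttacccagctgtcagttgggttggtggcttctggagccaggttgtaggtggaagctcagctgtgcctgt
Lgr6: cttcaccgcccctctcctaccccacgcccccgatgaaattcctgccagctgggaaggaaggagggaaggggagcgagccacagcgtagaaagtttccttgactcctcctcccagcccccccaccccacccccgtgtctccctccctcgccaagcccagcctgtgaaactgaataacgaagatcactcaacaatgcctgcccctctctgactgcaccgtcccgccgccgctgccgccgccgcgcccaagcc
Fzd10: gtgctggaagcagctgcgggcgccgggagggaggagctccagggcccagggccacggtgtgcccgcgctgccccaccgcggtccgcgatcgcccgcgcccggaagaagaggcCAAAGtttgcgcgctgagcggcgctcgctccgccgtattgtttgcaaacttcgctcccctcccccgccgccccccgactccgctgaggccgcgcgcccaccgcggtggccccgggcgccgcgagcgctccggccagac
None of the 4 held CTTTGAT or CTTTGAA, and only Fzd10 held a core, read as CAAAG on the printed strand. G and C made up 69.2% of the Axin2 window, 58.4% of Nkd1, 65.2% of Lgr6 and 76.4% of Fzd10, against a median of 52% over all windows. The windows do not all lie before the whole gene. In the gene spans used for the members, Axin2 starts at 108917828, so that its window lies inside the gene. The Lgr6 span, on the minus strand, begins at 135105374, so that its window overlaps the gene. The Fzd10 window ends just before its gene. These letters describe short windows and say nothing of binding by a factor.

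Whole tumors hold several cell types, and the members moved with their markers in different ways. Scores of 12 cell types or states were related to each member, which together with Axin2 gave 649 relations.

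**Figure D5:**
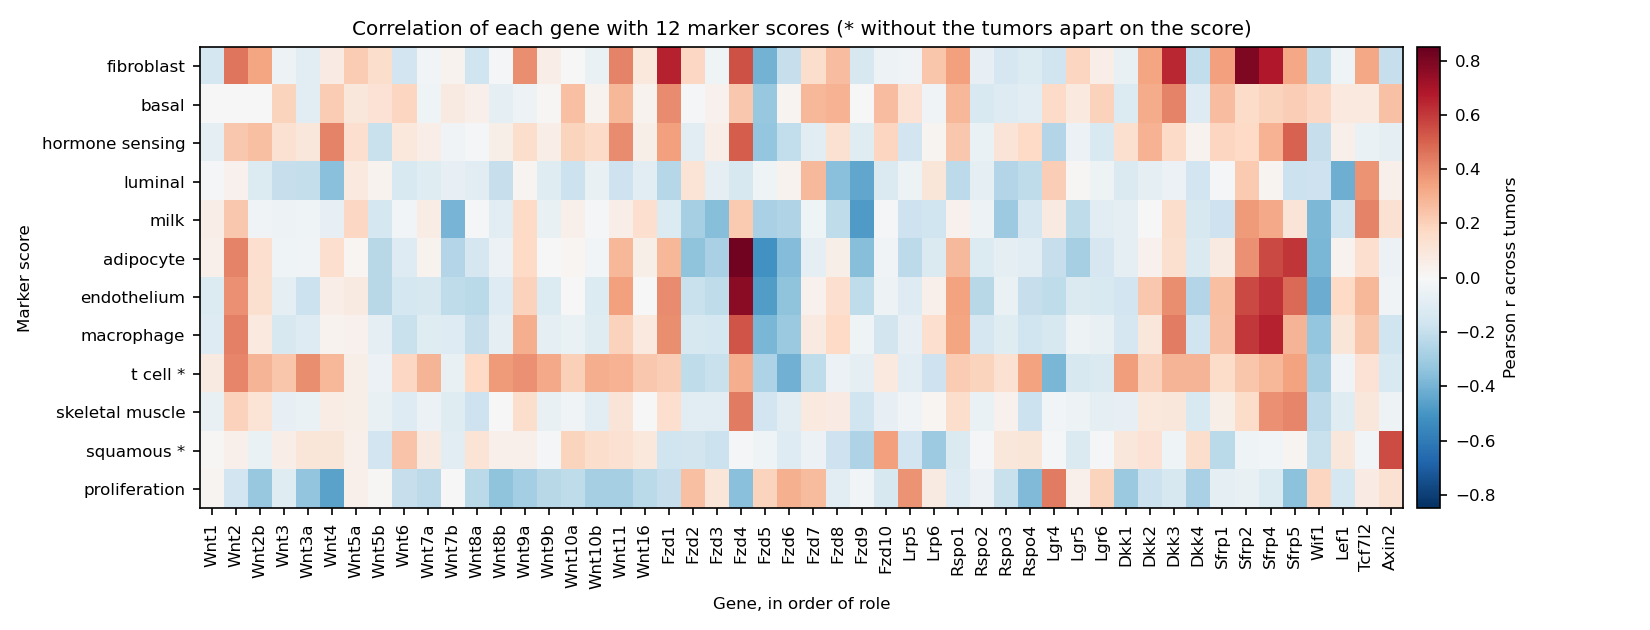
Pearson correlation of the 50 genes (horizontal axis, in order of role) with 12 marker scores (vertical axis), from blue (negative) over white to red (positive), across 159 tumors except in the rows marked with an asterisk, which leave out 6 tumors apart on the T cell score and 7 on the squamous score. Sfrp2, Sfrp4, Fzd1 and Dkk3 are red for the fibroblast score, Fzd4 for adipocyte and endothelium, and Fzd5 and Wif1 are blue for both of the latter.

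With the fibroblast score, built from 14 matrix and receptor genes, 17 members were higher, against 16.3% of all genes, and 5 were lower, against 13.2%. Sfrp2 rose by 0.67 ± 0.04 per SD of the score (r = 0.80, rho = 0.74, permutation p = 1e-05 for both, limma adjusted p = 3.33e-34) and Sfrp4 by 0.73 ± 0.06 (r = 0.68, rho = 0.69, limma adjusted p = 1.69e-21). Within number blocks r ran from 0.73 to 0.94 for Sfrp2 and from 0.60 to 0.82 for Sfrp4. Fzd1 had r = 0.65 (0.31 to 0.84 in blocks), Dkk3 0.64 (0.54 to 0.73), Wnt2 0.46 and Sfrp1 0.35. Those lower were Fzd5 (r = -0.40), Fzd6, Dkk4, Wif1 and Axin2, the last with r = -0.20 but rho = 0.15. Sfrp2 and Sfrp4 also rose with the macrophage score, at r = 0.60 and 0.66, and with the endothelium score, at 0.56 and 0.62. The macrophage score had 12 members higher and 5 lower, against 17.6% and 15.6% of all genes, and the count lower was 10 (against 26.6% of all genes) with quantile normalization and 11 (against 20.1% of all genes) with the number block as a factor.

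With the adipocyte score 8 members were higher, against 17.4% of all genes, and 11 were lower, against 17%. Fzd4 rose by 0.49 ± 0.03 per SD (r = 0.82, rho = 0.78, permutation p = 1e-05 for both, limma adjusted p = 3.34e-38), with r from 0.79 to 0.85 in the number blocks. It was nearly as close to the endothelium score, at 0.77, for which 13 members were higher and 13 lower, against 20.6% and 20% of all genes. Sfrp5 and Sfrp4 rose with the adipocyte score at r = 0.61 and 0.56. With the skeletal muscle score 3 members were higher, the same Fzd4, Sfrp4 and Sfrp5, and 0 lower, against 4.64% and 0.533% of all genes by limma. At an unadjusted permutation p of r under 0.05, 5 were lower, but the share of all genes at that threshold was not computed. With ranks in place of values 19 (against 17.6% of all genes) members were higher with this score.

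Fzd5 was the receptor that ran most against adipocyte markers (r = -0.51, rho = -0.53, -0.59 to -0.49 in blocks, limma adjusted p = 9.52e-11), with Fzd6 at -0.37 and Fzd9 at -0.365, and the antagonist Wif1 was at -0.39. Wif1, the most variable member, was also lower with endothelium (r = -0.42, limma adjusted p = 2.86e-07) and with the milk genes (r = -0.38, -0.53 to -0.19 in blocks, limma adjusted p = 1.76e-05). Fzd9 was lower with milk genes too (r = -0.48, rho = -0.48, limma adjusted p = 9.82e-09), while Tcf7l2 was higher (r = 0.42). The milk score had 5 members higher and 10 lower, against 13.1% and 13% of all genes. The luminal score had 4 higher and 13 lower, against 20.9% and 22.5%. Apart on it were 3 tumors low in luminal markers, with scores from -5.42 to -2.36, while no other tumor was below -1.32. Without these 3 tumors the counts were 2 and 8, against 18.7% and 19.9%. The count lower also dropped to between 5 and 7 on values as deposited, with quantile normalization, with ranks, with the receptor mean as a covariate and without low-correlation arrays, where 9.7% to 13.9% of all genes were lower.

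With the basal score, from 10 genes of basal and myoepithelial cells, 14 members were higher, against 12.7% of all genes, and 1 was lower, Fzd5, against 6.66%. Dkk3 had r = 0.42 (limma adjusted p = 1.7e-06), Fzd1 0.40 and Fzd7 0.28 (limma adjusted p = 0.00308). Axin2 had r = 0.25 (rho = 0.25, permutation p = 0.0023 and 0.0022, limma adjusted p = 0.0113). Of the genes in the score, Krt5, Krt14, Krt15, Krt17 and Trp63 had r with Axin2 from 0.33 to 0.45, and the receptor and contractile genes Oxtr, Acta2, Cnn1, Myh11 and Mylk from -0.11 to 0.0091. Without the single tumor apart on this score 10 members were higher, against 9.13%, and 1 lower, against 4.59%. Dkk3, Fzd1, Fzd7 and Axin2 stayed called there, with r of 0.41, 0.33, 0.27 and 0.22.

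With the score of hormone-sensing cells, from 8 measured genes such as Esr1 and Pgr, 10 members were higher, against 13.8% of all genes, and 4 were lower, against 13.9%. Wnt4 rose by 0.13 ± 0.02 per SD (r = 0.42, rho = 0.35, permutation p = 1e-05 and 2e-05, limma adjusted p = 1.01e-06), with 0.23 to 0.74 in blocks and 0.35 without the 2 tumors farthest from the median of the score. Fzd4 had r = 0.51, Sfrp5 0.50 and Wnt11 0.40. Lgr4 was lower (r = -0.25, rho = -0.35, limma adjusted p = 0.00769), with -0.67 to 0.24 in blocks.

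With proliferation 8 members were higher, against 27.7% of all genes, and 21 were lower, against 34%. Lgr4 rose most closely with it (r = 0.44, rho = 0.48, permutation p = 1e-05 for both, limma adjusted p = 4.59e-08, 0.14 to 0.64 in blocks), and Wnt4 fell most closely (r = -0.45, rho = -0.32, limma adjusted p = 2.07e-08). Without the single tumor apart on this score, Lgr4 was at 0.47 and Wnt4 at -0.30, and 4 members were higher and 23 lower, against 26.4% and 33.4% of all genes. The mean of the background receptor genes itself correlated with proliferation at -0.48. With it as a covariate 4 members were higher and 10 lower, against 17.7% and 18.5% of all genes.

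Lef1 gave a relation that rests on few tumors. On the T cell score, from 8 measured genes such as Cd3e, 6 tumors stood apart. Their scores lay between 2.21 and 6.40, while no other tumor exceeded 0.95. Lef1, which T cells use, ran from 7.62 over 9.20 to 10.41 in the 6 and from 5.83 over 6.26 to 8.44 in the others, so that the groups overlapped. Within the 6, Lef1 and the score had the same order (r = 0.997, two-sided exact permutation p = 0.0014). Within the others the correlation did not pass the test (r = -0.03, permutation p = 0.7, rho = 0.08, -0.23 to 0.32 in blocks). Over all tumors 3 members were higher with the T cell score and 7 lower, against 10.9% and 6.54% of all genes. Without the 6 the counts were 26 and 8, against 31.2% and 30.2%, and Lef1 was in neither.

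Some Wnt genes are neighbors in the genome, and 4 pairs of members lie within 100 kb. Wnt6 and Wnt10a, 6696 bases apart on chromosome 1, moved together (r = 0.74, rho = 0.70, permutation p = 1e-05 for both, limma adjusted p = 1.69e-25), with r from 0.50 to 0.96 in the number blocks. Wnt3a and Wnt9a, 16097 bases apart on chromosome 11, had r = 0.62. Wnt3 and Wnt9b, whose gene models overlap on that chromosome, had r = 0.56, and the part of shared sequence in this was not tested. Wnt1 and Wnt10b, 11650 bases apart on chromosome 15, had r = 0.20 (permutation p = 0.021, limma adjusted p = 0.218) but rho = 0.51 (permutation p = 1e-05), and r was 0.55 without the 2 tumors farthest in Wnt1. Many genes rose with some of these ligands: 29.5% of all genes with Wnt6, 28.6% with Wnt3a and 28.3% with Wnt3, but 0.169% with Wnt1.

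The 10 pairs of members with the largest correlation, chosen for it and so given as a description, joined 8 genes of low signal, namely Wnt3a, Wnt6, Wnt7a, Wnt9b, Wnt10a, Wnt10b, Rspo4 and Dkk1. The highest were Wnt3a with Wnt9b (r = 0.80, 0.46 to 0.81 within number blocks), Wnt3a with Rspo4 (0.80, 0.61 to 0.83) and Wnt3a with Wnt7a (0.78, 0.54 to 0.73). The lowest block value of the 10 pairs was 0.19, for Wnt7a with Rspo4. Levels also differed by block. The block means of Wnt3a ran from 6.36 to 6.63 and those of Wnt7a from 5.90 to 6.22, with 7.00 and 6.51 in the small last block. The means of these genes lay between 5.803 and 6.93, and their correlations with the mean of the background receptor genes between 0.20 for Wnt10a and 0.50 for Rspo4. With that mean held fixed the 10 correlations ran from 0.67 to 0.79. Of all genes, 29.1% rose with Rspo4 and 29.6% with Wnt7a.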

How the data were processed

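Total RNA of 159 tumors was measured on Affymetrix mouse Gene ST arrays. The deposited values are log2 expression values per probe set, and their array medians ran from 6.81 to 7.18. For its own analysis the paper normalized arrays against the median array in BRB ArrayTools and did no batch correction. It does not state whether the deposited values carry that normalization. The sources used here do not give the background correction or the summarization. Of 20718 probe sets, 18965 had 1 gene symbol in the platform annotation, 688 had several and 1065 were unlisted. For each of 18954 genes the probe set of highest mean was used, and each array was shifted to the median array (by at most 0.242). No array was left out of the main results, and the number of tumors limits the precision.

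Members and lists were chosen with earlier results of these data known. Members were described in full if above background with a variance ratio of 1.5 or more or if called with Axin2, and the rest by range and counts. The 10 genes with the highest and the 5 with the lowest r to Axin2, neighbors within 100 kb and the 10 pairs of largest r were also named. Nothing in the labels states a batch or replicate, although the titles of animals 14608 and 14611 end in an R that they do not explain. With 1 array per animal, p-values measure the spread between animals together with that of arrays and processing. The paper bred fewer DO females than there are tumors, so some animals may be siblings. The labels name no litter, and the tests treat all animals as independent. Relations were fitted with limma 3.58.1 (R 4.3.3, lmFit and eBayes, two-sided, Benjamini-Hochberg over all genes), and single r and rho were tested with 100000 permutations, two-sided (scipy 1.17.1, numpy 2.4.6, pandas 2.3.3, Python 3.11.15). Tumors were called apart on a score beyond a first gap of over 1, outward from the median.

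Both procedures were tested on simulated data of 18954 genes. The variation test called 78% of genes whose SD was raised 1.15 times, 100% at 1.3 times and 5.21% of unchanged genes. All unchanged genes shared the same SD there, with normal noise. On the array SDs differ between genes, so 5.21% is not an error rate of the test on the tumors. The fit on Axin2 called 12% of genes with a true r of 0.2, 54% at 0.3, 96% at 0.4 and 100% at 0.6. Only 200 genes carried a relation there, with normal noise independent between genes. In the tumors 1719 genes were called higher and 593 lower, and genes are correlated. These shares are therefore not the power of the fit on the tumors. Alternatives were other array scaling, background levels, thresholds and probe sets, block factors, ranks, and leaving out arrays or tumors; those on receptor genes, squamous markers, tumors apart and highest tumors were chosen after the values were seen.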

Additional observations from a re-analysis of the deposited data

How the results depend on the processing

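The count of members past the variation test stayed within 1.5 times the main count under each alternative run. Counts of members that moved by more are given with the share of all genes in the same setting in parentheses. With Axin2, the members higher numbered 3 (5.24%) with the squamous score as a covariate, 2 (4.88%) with ranks and 4 (4.09%) without the tumors apart on that score. The members lower numbered 5 (3.41%) with that covariate, 5 (5.31%) with quantile normalization and 1 (1.11%) without those tumors. With fibroblast markers 9 (26.6%) were lower after quantile normalization. With basal markers the members higher numbered 9 (8.09%) without low-correlation arrays, 6 (9.24%) with ranks and 5 (7.27%) without the 2 farthest tumors. With hormone-sensing markers 6 (9.64%) were higher after quantile normalization and 2 (12%) lower with the block as a factor. With proliferation the members higher numbered 4 (19.2%) after quantile normalization, 4 (23.4%) without low-correlation arrays, 4 (25.8%) with ranks, 4 (17.7%) with the receptor covariate, 4 (26.4%) without the tumor apart and 3 (27.3%) without the 2 farthest tumors. The members lower numbered 5 (14.7%) after quantile normalization and 10 (18.5%) with the receptor covariate.

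For luminal markers the members higher numbered 1 (10.9%) with the receptor covariate, 1 (13%) with ranks, 1 (12.1%) without low-correlation arrays and 2 (18.7%) without the tumors apart, and those lower 6 (11.6%) on values as deposited, 5 (12.1%) after quantile normalization, 6 (9.7%) with ranks, 6 (12.93%) without low-correlation arrays, 7 (13.9%) with the receptor covariate and 8 (19.9%) without the tumors apart. For macrophage markers 10 (26.6%) were lower after quantile normalization, 11 (20.1%) with the block and 8 (23.6%) on values as deposited. With ranks, 27 (30.1%) were higher with the T cell score, 19 (17.6%) higher and 4 (19.8%) lower with muscle, and 11 (13.5%) lower with the squamous score. Without the tumors apart 26 (31.2%) were higher with the T cell score. For the squamous score, 2 (1.51%) were higher and 2 (0.554%) lower without the tumors apart, 6 (4.66%) were higher without the 2 farthest tumors, and lower were 3 (8.74%) after quantile normalization, 2 (6.3%) on values as deposited and 2 (5.26%) among genes above background. With muscle 1 (1.13%) was lower with the receptor covariate. The cause of these shifts was not tested.

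Of 43 relations between single genes, 344 of 364 alternative values kept their direction and their side of the threshold, 18 lost the call, 1 gained it (Wnt1 with Wnt10b on values as deposited, limma adjusted p = 0.0138), and 1 changed sign, Lef1 with the T cell score, at r = -0.0317 without the 6 tumors apart. All alternatives kept the call for 32 of the relations. No paired analysis was possible because all tumors form a single group. Genes near background, such as Wnt1, Wnt3, Wnt8b, Rspo2 and Dkk4, have signals that cannot be told apart from the background of the array in most tumors, and differences between tumors there are limited by it.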
